A study of Mus musculus with 4 samples.

Results

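The genes described here encode lysosomal enzymes and lysosomal membrane proteins, together with Tfeb, a transcription factor that controls many of them. The list held 33 genes, and 32 of the 22180 genes named on the array were members of it. It was chosen by the higher level of Cd68 in cells treated with GSK126, to ask whether that difference went with a wider lysosomal one. The Cd68 difference is therefore given as a description with no test. The other genes were listed for their function, and each was read from the brightest of its probe sets, by the mean over all 4 arrays. Glb1, which encodes the lysosomal beta-galactosidase, was the listed gene left out, because its probe set also carries the symbol of Tmppe.

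The cells were tumour lines from FVB females carrying the MMTV-NIC transgene. There the mouse mammary tumour virus promoter, active in mammary epithelium, drives ErbB2 and, from the same transcript, Cre recombinase. All cells were grown in serum-containing medium with EGF, hydrocortisone, insulin and bovine pituitary extract. One group received 2 µM GSK126 for 96 h (n = 2 arrays) and the control group received the vehicle DMSO for 96 h (n = 2 arrays). GSK126 inhibits EZH2, the enzyme that trimethylates lysine 27 of histone H3. The labels do not say whether the arrays of a group came from separate cultures or separate tumour lines, so the p-values reflect only how far these arrays spread, and that spread may be technical. Because whole cultures were profiled, fewer cells of a type and less RNA per cell cannot be told apart.

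Lysosomes are acidic compartments in which proteins, lipids and sugar chains delivered by endocytosis and autophagy are broken down. Their soluble hydrolases are sorted there through mannose 6-phosphate tags, and heavily glycosylated proteins such as LAMP1 and LAMP2 line the membrane. TFEB and its relatives bind a short E-box element in the promoters of many lysosomal genes and raise their transcription when nutrient signalling through mTORC1 falls. CD68 is a lysosomal and endosomal glycoprotein of the same family as the LAMP proteins. It is abundant in macrophages and widely used as their marker, but epithelial and tumour cells can also make it.

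Promoter sequences were examined first because the E-box is a feature that the choice of genes did not use. RefSeq promoters (build GRCm38.p6, 250 bases before to 50 after a start site) were matched for 30 of the 33 listed genes. The core letters CACGTG, which read the same on both strands, were present in 9 of these 30 genes (30%), against 8.09% of all 27025 genes in the promoter table and 9.19% of the 16990 of them that the array measured. The 8-letter form TCACGTGA, which contains the core, was present in 3 of the 30 genes, against 1.12% of all genes in the table. All the matches in listed genes lay before the start site. The 6 stretches below are examples, with each CACGTG core in capitals. They are those of Cd68, which had no match in the window, and of Lamp1 and Mcoln1, which had 4 and 2. The others are Gla, Naglu and Arsa, which had 2, 1 and 1 and are described further on. All 6 genes had a higher mean with GSK126. Gaa and Sgsh, which held 1 core each and had lower means (differences of -0.20 and -0.11), are not printed, nor are Cln3 and Glb1.
Cd68 (chr11:69666171-69666250, minus strand): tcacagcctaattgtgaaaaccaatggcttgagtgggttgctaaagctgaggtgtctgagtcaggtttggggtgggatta
Lamp1 (chr8:13159081-13159160, plus strand): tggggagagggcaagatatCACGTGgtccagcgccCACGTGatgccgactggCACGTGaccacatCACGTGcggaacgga
Mcoln1 (chr8:3500424-3500503, plus strand): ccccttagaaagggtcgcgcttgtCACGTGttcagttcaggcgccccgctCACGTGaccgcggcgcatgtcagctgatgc
Gla (chrX:134601174-134601253, minus strand): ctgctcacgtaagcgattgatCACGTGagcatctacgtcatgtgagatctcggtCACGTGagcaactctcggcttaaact
Naglu (chr11:101069984-101070063, plus strand): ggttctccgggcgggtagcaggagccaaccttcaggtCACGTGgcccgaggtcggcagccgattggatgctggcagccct
Arsa (chr15:89477425-89477504, minus strand): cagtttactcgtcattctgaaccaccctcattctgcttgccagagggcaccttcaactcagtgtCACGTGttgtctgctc

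**Figure D1:**
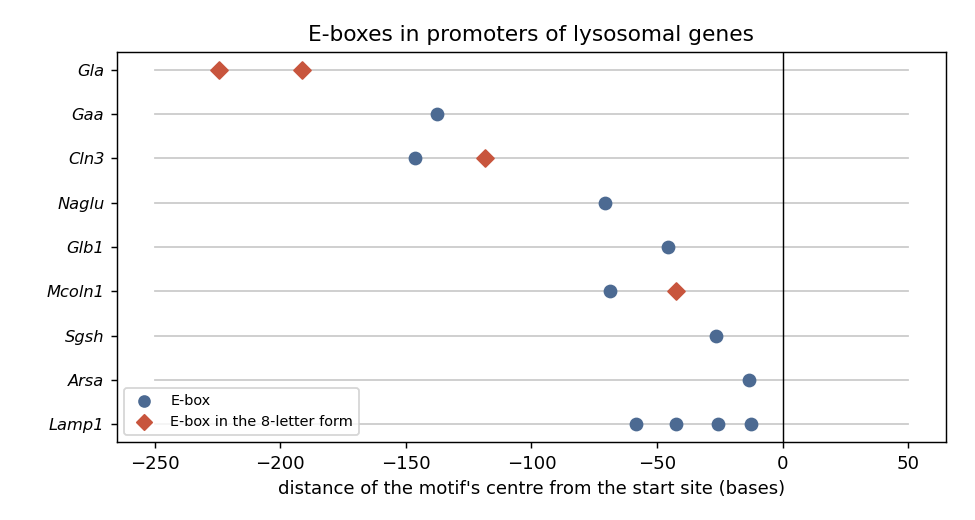
Distance in bases of each CACGTG E-box from the start site (0) in the 9 listed genes that hold one, 1 gene per line. Circles are cores outside the 8-letter form and diamonds are cores within TCACGTGA, which Gla, Cln3 and Mcoln1 hold. Every match lies before the start site.

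Cd68, the gene that the list was chosen by, is described first. Its log2 expression was 8.20 and 8.08 in the DMSO arrays and 9.16 and 9.12 in the GSK126 arrays. The difference was 1.00 on the log2 scale, a 2.00-fold higher level in the treated arrays. Among the other 31 genes the differences ran from -0.30 to 0.34, and the highest upper bound of their 95% intervals was 0.58, that of Asah1.

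**Figure D2:**
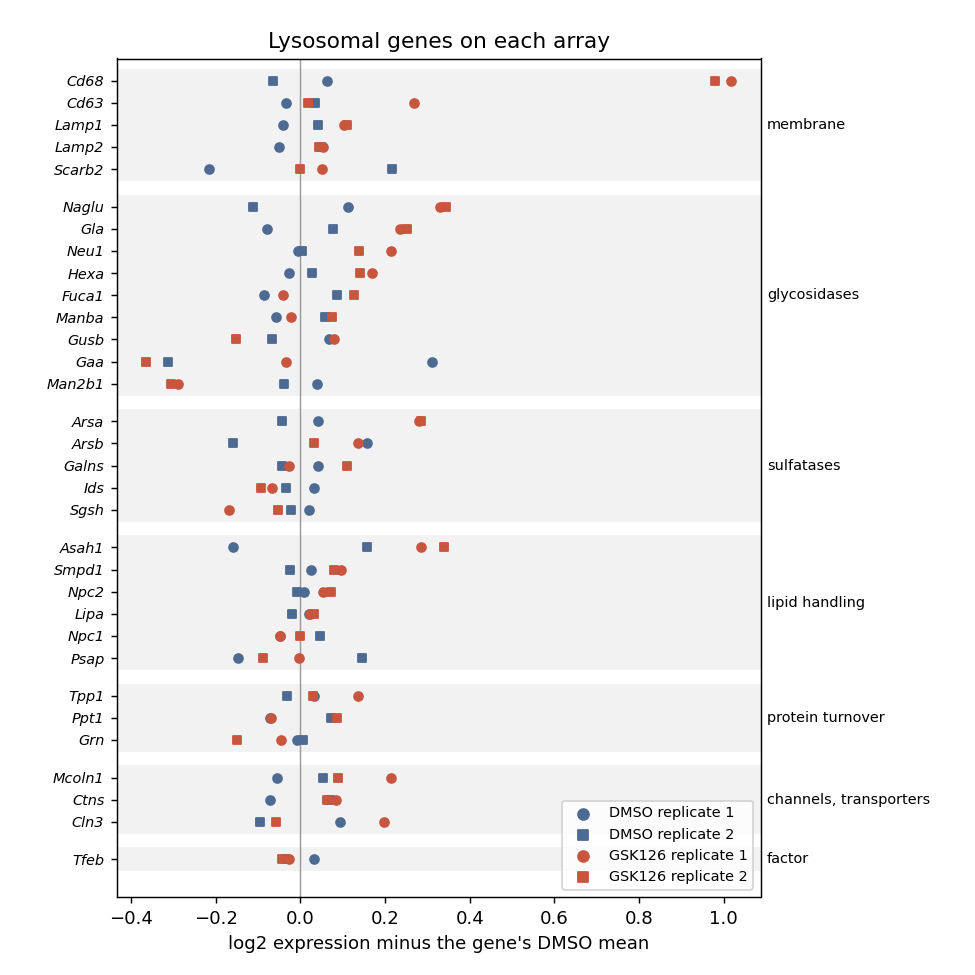
Log2 expression of each of the 32 measured genes on each array, with the gene's DMSO mean subtracted, grouped by role. Blue marks DMSO, red marks GSK126, and circles and squares are replicates 1 and 2. The GSK126 points of Cd68 lie far to the right of all other points. The differences of the other 31 genes run from -0.30 to 0.34.

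Across all named genes, limma called 0.261% higher and 0.171% lower with GSK126 at a Benjamini-Hochberg adjusted p under 0.05. Of the 31 lysosomal genes other than Cd68, 0 were called in either direction. At an unadjusted p under 0.05, limma gave 4 of these 31 genes higher, beside 4.64% of all genes, and 1 lower, beside 5.93% of all genes. They were Naglu, Arsa, Gla and Asah1, which were higher, and Man2b1, which was lower, and their adjusted p-values lay between 0.321 and 0.407.

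The arrays allowed fairly narrow limits for most of the other genes. The 95% interval reached 0.21 to either side of the difference in the median gene, from 0.18 to 0.46. On the lower side the interval of Gaa ran down to -0.66, past a 1.5-fold decrease. On the upper side, 0 of the 31 intervals reached a 1.5-fold increase. Leaving out single arrays widened the intervals, and between 1 and 4 of the 31 genes then reached that size, as did 2 without the intensity trend, 2 after quantile normalization and 1 with the replicate number as a block. An adjusted p that misses the threshold does not show that a gene was unchanged.

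**Figure D3:**
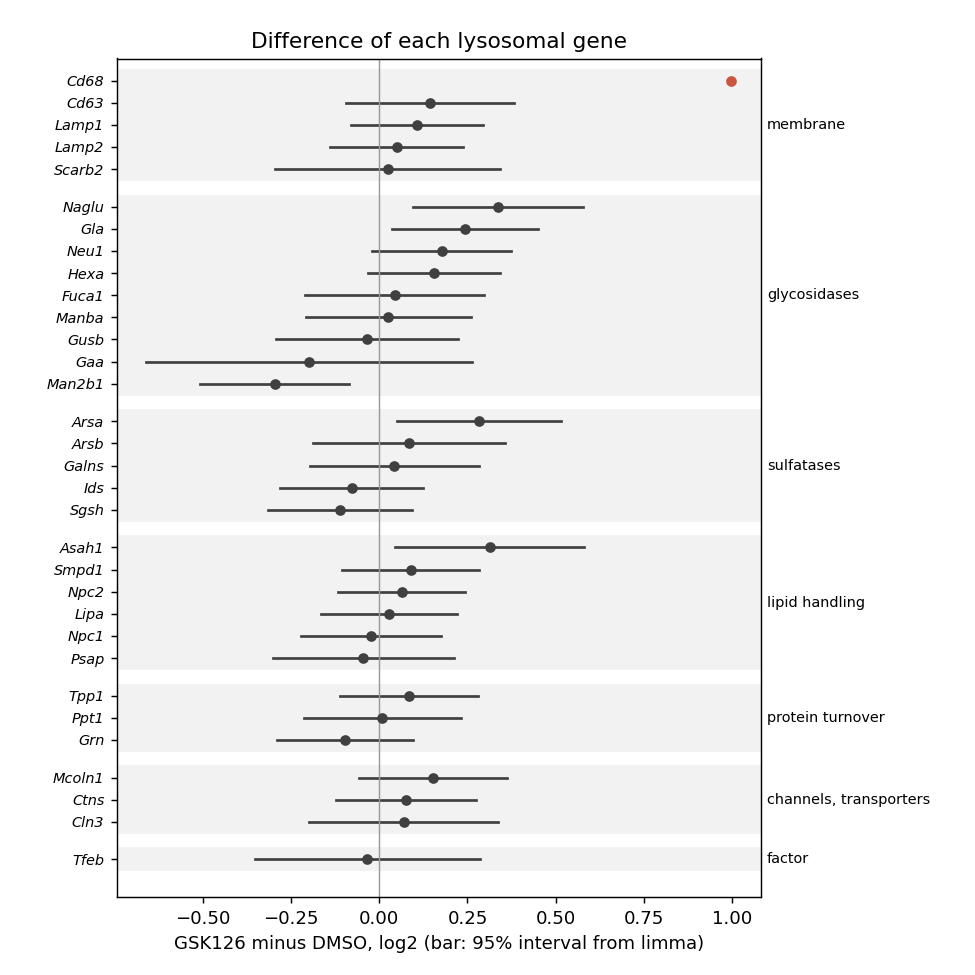
Difference between GSK126 and DMSO (log2) for each of the 32 genes, with its 95% interval from limma for all but Cd68. Cd68, which chose the list, is a red point without an interval, at 1.00. The intervals of 26 of the other 31 genes hold 0.

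Membrane glycoproteins other than Cd68 differed little. Lamp1, the most studied protein of the lysosomal coat, was at 11.59 and 11.67 with DMSO and 11.73 and 11.74 with GSK126, a difference of 0.11 (SE 0.08). Lamp2, which also serves as the receptor of chaperone-mediated autophagy, was at 10.48 and 10.58 with DMSO and 10.59 and 10.58 with GSK126. The groups touched for Lamp2, with a difference of 0.05 (SE 0.08, 95% interval -0.14 to 0.24). Cd63, a tetraspanin of late endosomes and lysosomes, was at 9.95 and 10.02 with DMSO and at 10.25 on GSK126 replicate 1. GSK126 replicate 2 lay between the DMSO arrays, so that the difference of 0.14 came from replicate 1. Scarb2, which carries beta-glucocerebrosidase to the lysosome, ranged from 9.10 to 9.53 between the DMSO arrays, a spread that enclosed both GSK126 arrays.

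The glycosidases, which remove sugars from glycoproteins, glycolipids and glycosaminoglycans, differed in both directions. Of the 9 measured, 6 had a higher mean with GSK126 and 3 a lower one, with a median difference of 0.04. Naglu, which acts on heparan sulfate, was at 7.96 and 7.73 with DMSO and at 8.17 and 8.19 with GSK126. Both treated arrays were above both controls, as they were for 18.2% of all genes. The difference of 0.34 (SE 0.10) was the largest after Cd68 (limma adjusted p = 0.321). Gla, the alpha-galactosidase that is deficient in Fabry disease, was at 9.05 and 9.20 with DMSO and at 9.36 and 9.38 with GSK126. Its groups did not overlap either, with a difference of 0.24 (SE 0.09, limma adjusted p = 0.404).

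Man2b1, the lysosomal alpha-mannosidase, had the lowest difference of all 32 genes. It was at 7.90 and 7.82 with DMSO and at 7.57 and 7.55 with GSK126. Both treated arrays lay below both controls, as they did for 21.8% of all genes. The difference was -0.30 on the log2 scale (SE 0.09, 95% interval -0.51 to -0.08, limma adjusted p = 0.321). Manba, the beta-mannosidase that removes the last mannose of the same sugar chains, had a difference of 0.03 (95% interval -0.21 to 0.26).

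Among the other glycosidases, Hexa, a subunit of beta-hexosaminidase, and Neu1, the lysosomal sialidase, had differences of 0.16 and 0.18 with no overlap between groups. For these, both GSK126 arrays lay above both DMSO arrays, as they did for 18.2% of all genes. Fuca1, the fucosidase, and Gusb, the beta-glucuronidase, had differences of 0.04 and -0.04, with overlapping groups. Gaa, the acid maltase that degrades glycogen, was at 9.22 and 8.59 with DMSO and at 8.87 and 8.54 with GSK126. Its DMSO arrays were 0.62 apart, the widest gap of any member, and its interval ran from -0.66 to 0.26.

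The sulfatases strip sulfate groups from glycosaminoglycans and sulfolipids. Arsa, the sulfatidase that is lost in metachromatic leukodystrophy, was at 6.85 and 6.76 with DMSO and at 7.09 on both GSK126 arrays. Both treated arrays lay above both controls, as for 18.2% of all genes, with a difference of 0.28 (SE 0.10, limma adjusted p = 0.390). Sgsh and Ids, which act on heparan sulfate as Naglu does, had differences of -0.11 and -0.08. For these, both GSK126 arrays lay below both DMSO arrays, as they did for 21.8% of all genes, and neither difference passed (limma adjusted p = 0.718 and 0.819). Arsb and Galns, which remove sulfate from dermatan and keratan sulfate respectively, had differences of 0.08 and 0.04, with overlapping groups.

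None of the 6 genes of lysosomal lipid handling was called by limma, which called 0.261% of all genes higher and 0.171% lower. In limma 1 of them was higher at an unadjusted p under 0.05, beside 4.64% of all genes. That gene, Asah1, the acid ceramidase, was at 8.89 and 9.21 with DMSO and at 9.34 and 9.39 with GSK126. Both treated arrays exceeded both controls, as they did for 18.2% of all genes. However, the controls were 0.32 apart, as much as the difference of 0.31 (SE 0.11, limma adjusted p = 0.407). The difference was 0.15 without DMSO replicate 1 and 0.47 without DMSO replicate 2. Smpd1, the acid sphingomyelinase whose product ceramide is the substrate of Asah1, was at 8.52 and 8.47 with DMSO and at 8.59 and 8.57 with GSK126, a difference of 0.09. Psap, the precursor of the saposins that present lipids to these enzymes, ranged from 11.51 to 11.80 between the DMSO arrays and differed by -0.05.

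The cholesterol exporters Npc1 and Npc2 and the cholesteryl ester hydrolase Lipa had differences of -0.02, 0.06 and 0.03. The intervals of these 3 genes lay between -0.22 and 0.24. Arsb, Npc1 and Smpd1 each had another, dimmer probe set. The dimmer one gave -0.09 against 0.08 for Arsb, 0.29 against -0.02 for Npc1 and 0.21 against 0.09 for Smpd1. That of Npc1 had a mean level of only 3.11, below the 40th percentile of all genes (4.77).

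Tpp1, a peptidase that trims tripeptides, Ppt1, which removes palmitate from proteins, and Grn, the precursor of the granulins, take part in lysosomal protein turnover. Tpp1 and Ppt1 had differences of 0.08 and 0.01, with overlapping groups. Grn was at 11.81 and 11.83 with DMSO and at 11.78 and 11.67 with GSK126, a difference of -0.10 (SE 0.08).

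The 3 channel and transporter genes all had a higher mean with GSK126. Mcoln1, the calcium channel TRPML1, was at 9.04 and 9.15 with DMSO and at 9.31 and 9.19 with GSK126, a difference of 0.15 (SE 0.09). Its GSK126 arrays lay above both DMSO arrays by a narrow margin, and 18.2% of all genes were separate in this direction. Ctns, the cystine exporter, and Cln3, a membrane protein lost in a juvenile neuronal ceroid lipofuscinosis, both had a difference of 0.07, with overlapping groups.

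Tfeb itself was at 5.16 and 5.09 with DMSO and at 5.10 and 5.08 with GSK126. The groups overlapped, with a difference of -0.03 (SE 0.14, 95% interval -0.35 to 0.29). TFEB is controlled largely by phosphorylation and entry into the nucleus, which these arrays do not measure. Its level was above the 40th percentile of all genes (4.77), below which a gene is called dim here, and no member was dim in either group.

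As a group, the other 31 genes lay slightly above the median of all genes, and how many of them had a higher mean depended on how the arrays were scaled. In the values as deposited, 22 (71.0%) had a higher mean with GSK126, beside 48.0% of all genes, and the median difference was 0.05 beside -0.01 for all genes. Both GSK126 arrays lay above both DMSO arrays for 11 of the 31, beside 18.2% of all genes, and below them for 4, beside 21.8% of all genes. With each array centred on its median, 15 of the 31 had a higher mean, beside 36.5% of all genes, and the median was -0.005 beside -0.06. Centring lowered both medians alike. After quantile normalization, 24 of the 31 had a higher mean, beside 45.5% of all genes, and the median was 0.07 beside -0.02.

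The genes with unadjusted p under 0.05 also changed with the scaling. With centred arrays Naglu remained higher and Man2b1 lower, while Gla, Arsa and Asah1 no longer passed. After quantile normalization Neu1 joined the 4 higher genes. For single genes, the median gap between the arrays of a group was 0.09 for DMSO and 0.05 for GSK126 over the 31 genes, and their median absolute difference between groups was 0.08.

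**Figure D4:**
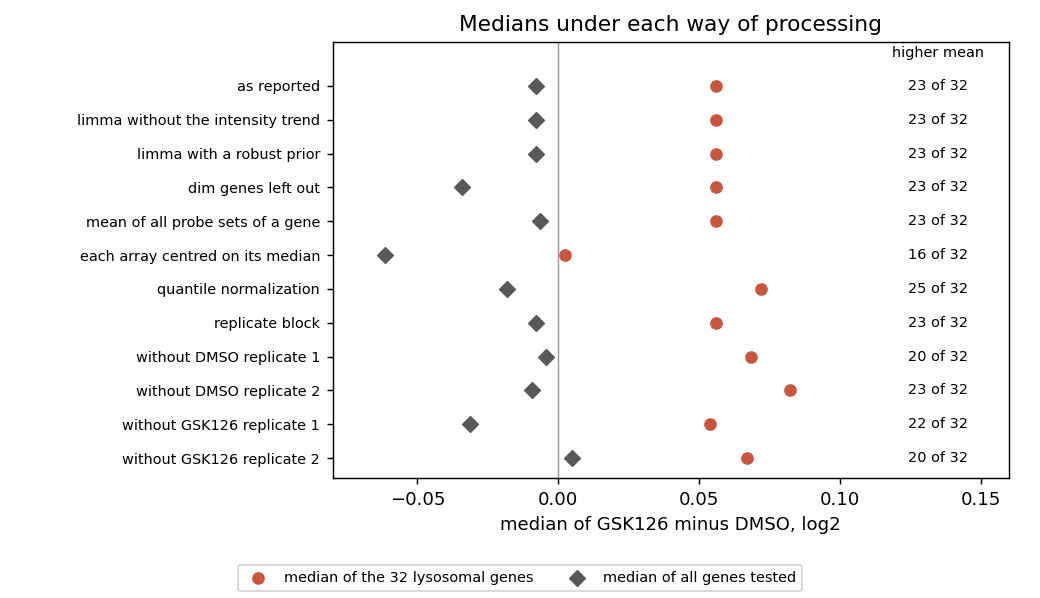
Median difference between GSK126 and DMSO (log2) of the 32 lysosomal genes (red circles) and of all genes tested (grey diamonds) under each way of processing, with the number of lysosomal genes that had a higher mean at the right. Centring moved both medians down by 0.05 and left 16 of 32 genes with a higher mean.

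Genes with the E-box were compared with the rest as a description. Of the 8 measured genes with CACGTG before the start site, 6 had a higher mean with GSK126, beside 48.0% of all genes. Their median difference was 0.13, with a range from -0.20 to 0.34. Of the 20 measured genes other than Cd68 with a promoter entry and no match, 14 had a higher mean. Their median was 0.04, with a range from -0.30 to 0.18. Npc1, Galns and Asah1 had no promoter entry and were in neither group. Their differences were -0.02, 0.04 and 0.31, so that of Asah1 lay above the range without a match. The 2 ranges overlapped. Lamp1, with 4 cores, and Gaa, with 1, had differences of 0.11 and -0.20.

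Other gene lists, the lysosomal ones first, were counted in the same way, to be read beside the shares of all genes. Of all 22180 genes, limma called 0.261% higher with GSK126 and 0.171% lower. Its unadjusted p was below 0.05 for 4.64% of all genes with a higher mean and 5.93% with a lower one. Whether any list departed from these shares was not tested. Of 19 further hydrolases and genes related to them, 0 were called by limma and 3 had an unadjusted p under 0.05. Their median difference was 0.02. Not all of the 19 encode lysosomal hydrolases, and Gba2, Sumf1 and Hgsnat are among those that do not. The smallest p-values belonged to Lgmn (-0.34, SE 0.10), an asparaginyl protease, and Acp5 (-0.30, SE 0.10), an acid phosphatase, both lower with GSK126. Ctbs, a chitobiase, had the largest difference in size of the list, 0.35 in the other direction. The list's median ran from -0.02 to 0.04 without single arrays. Of 13 cathepsins, 0 were called and 3 had an unadjusted p under 0.05. The smallest p-values belonged to Ctsw, with a difference of 0.35, and Ctsc, which activates granule proteases, with -0.26. Ctsf had the largest difference in size of the list, 0.53. The cathepsin median of 0.10 became -0.004 without DMSO replicate 2 and -0.007 with dim genes left out.

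Of 30 further lysosomal membrane and transport genes, 1 was called. Slc29a3, a nucleoside transporter of lysosomes, fell from 10.54 and 10.36 with DMSO to 9.87 and 9.75 with GSK126 (difference -0.64, SE 0.10, limma adjusted p = 0.0466). The call ended when its probe sets were averaged (-0.17) and with the replicate number as a block (limma adjusted p = 0.138). It also ended without the intensity trend, where 0 of all 22180 genes were called. Without single arrays the Slc29a3 difference ran from -0.73 to -0.55. Each of those fits leaves a single array in a group, so only the difference is given, not whether the call held. Tpcn1, an endolysosomal cation channel (-0.36, and -0.24 without DMSO replicate 1), and Slc37a2, a sugar phosphate transporter (0.43), did not pass.

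Lysosomes are acidified by the vacuolar proton pump, of which 21 subunit genes were measured. Here 1 was called, Atp6v1b1, a subunit isoform of epithelial cells that pump acid across their surface, which fell by 1.83 on the log2 scale (limma adjusted p = 0.000911). That was the lowest difference of all 22180 genes. The Atp6v1b1 difference was -1.80 without GSK126 replicate 1 and -1.85 without GSK126 replicate 2. Each of these fits leaves a single GSK126 array, so only the difference is given. The call ended without the intensity trend (limma adjusted p = 0.0608), where 0 of all 22180 genes were called. Atp6v1b2, the isoform found in most lysosomes, was at 11.23 and 11.22 with DMSO and at 11.43 and 11.48 with GSK126, a difference of 0.23 (SE 0.08, limma adjusted p = 0.371). Atp6v0a1, a membrane subunit, differed by 0.26. The median over the 21 subunits was 0.02, and turned to -0.02 without GSK126 replicate 1.

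Genes that deliver enzymes to the lysosome and genes that control TFEB had no calls in limma. Of 19 enzyme sorting genes, 0 were called and 2 had an unadjusted p under 0.05, Ap1m2 (-0.21), an adaptor subunit of epithelial cells, and Nagpa (-0.32), which uncovers the mannose 6-phosphate tag. Nagpa differed by -0.13 without DMSO replicate 1 and by -0.52 without DMSO replicate 2. Their median was -0.05 and turned to 0.01 without GSK126 replicate 2. Of 18 genes of the TFEB family and its nutrient control, 0 were called and 1 had an unadjusted p under 0.05. Rragd, a GTPase that brings TFEB to mTORC1, was at 5.77 and 5.42 with DMSO and at 6.04 and 6.35 with GSK126, a difference of 0.60 (SE 0.17, limma adjusted p = 0.278). Rraga, of the partner class of GTPases, differed by -0.15, and by -0.10 without DMSO replicate 2. The list's median was 0.005 and ran from -0.02 to 0.06 without single arrays.

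Autophagy genes, many of which TFEB also controls, had 0 calls and 0 genes with an unadjusted p under 0.05 among 24 in limma. Their median was -0.01, and the smallest p-values were those of Atg2a (-0.25) and Ulk1 (-0.23), both lower with GSK126. Without single arrays, Atg2a ran from -0.36 to -0.14, Ulk1 from -0.35 to -0.11 and the median from -0.06 to 0.004.

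**Figure D5:**
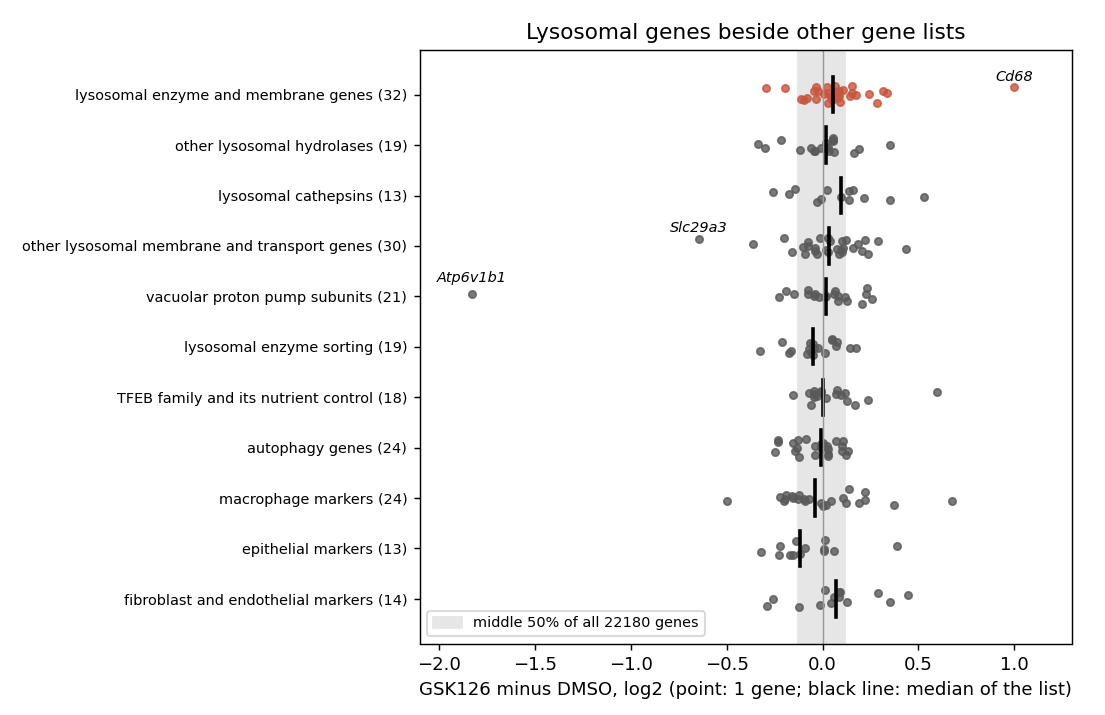
Difference between GSK126 and DMSO (log2) of each gene in the lysosomal set (red) and in 10 other lists (grey), with the number of genes in brackets and the list's median as a black line. The grey band is the middle 50% of all 22180 genes, from -0.13 to 0.12. Cd68, Slc29a3 and Atp6v1b1 are named.

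Because Cd68 is a macrophage marker, other macrophage genes were read beside it. Of 24 measured, 0 were called by limma and 2 had an unadjusted p under 0.05, with a median difference of -0.04. The median ran from -0.09 to -0.01 without single arrays and was 0.07 with dim genes left out. The macrophage genes were dim in 17 cases with DMSO and in 16 with GSK126, and their mean level was 4.71 to 4.74 in the DMSO arrays and 4.72 to 4.73 in the GSK126 arrays. The defining genes Adgre1 (3.68 to 4.17), Itgam (3.56 to 3.86) and Ptprc (3.37 to 3.67) were dim on all 4 arrays. Csf1r, the receptor of macrophage colony-stimulating factor, was at 4.86 and 4.71 with DMSO and at 5.05 and 4.77 with GSK126. Cd14, which epithelial cells can also make, was bright on all arrays, from 10.49 to 10.73. Also above the dim level in both groups were Fcer1g (6.41 to 6.62), an Fc receptor subunit, Cx3cr1 (5.81 to 6.62), a chemokine receptor, Marco (5.35 to 5.504), a scavenger receptor, Spi1 (4.98 to 5.19), a transcription factor of myeloid cells, and the complement gene C1qa. None of these was called by limma.

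Within that list, Mpeg1, a pore-forming protein of phagocytes, was at 3.56 and 3.73 with DMSO and at 4.49 and 4.15 with GSK126. Its difference of 0.68 (SE 0.19) did not pass (limma adjusted p = 0.268), and it was dim in both groups. C1qc, a complement subunit, also dim, differed by -0.50, and by -0.28 without DMSO replicate 2, whereas C1qb differed by 0.37.

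Most epithelial markers, which the labelled origin calls for, were bright. Of 13 measured, 12 were above the dim level in both groups, with a mean level of 9.76 to 9.88 per array. Krt19 was the exception and was at 4.89 or less on every array. None was called by limma, where 4 had an unadjusted p under 0.05, 1 higher and 3 lower, beside 4.64% and 5.93% of all genes. Their median difference was -0.12, from -0.17 to -0.06 without single arrays. Of the 13, 8 had a lower mean with GSK126 and 5 (38.5%) a higher one, beside 48.0% of all genes with a higher mean. On both GSK126 arrays 7 lay below both DMSO arrays, beside 21.8% of all genes. Cldn4, a tight junction protein, differed by 0.39 (limma adjusted p = 0.146) and Spint2, a protease inhibitor, by -0.23. Fibroblast and endothelial markers had a mean level of 4.50 to 4.69 per array and 0 calls in limma among 14, where 2 had an unadjusted p under 0.05, Pdgfra (0.45, and 0.28 without GSK126 replicate 2) and Thy1 (0.35). Their median difference was 0.07, but -0.12 when GSK126 replicate 1 was left out and 0.19 when replicate 2 was. Of the 14, 10 (71.4%) had a higher mean, beside 48.0% of all genes. The part of these marker levels in the lysosomal differences was not tested.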

How the data were processed

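Single-channel Affymetrix arrays were hybridised with biotin-labelled total RNA. Per the labels, the authors summarised core exons by robust multi-array averaging (Expression Console), and the deposited values are log2 expression. Affymetrix Power Tools also appears in the submitters' processing notes. A genome build was not given in the sources read. The number of arrays limits the precision. Probe sets with 1 gene symbol (23521 of 41345) were kept, 1814 carried several symbols and 16010 none, and 23328 matched a RefSeq gene (GRCm38.p6) by Entrez identifier. Array medians were 4.73 to 4.79 and correlations between arrays 0.981 to 0.988. GSK126 replicate 1 correlated better with both DMSO arrays than with GSK126 replicate 2.

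GSK126 was compared with DMSO over all 22180 genes with limma 3.58.1 in R 4.3.3 (intensity trend, two-sided, Benjamini-Hochberg adjustment, threshold 0.05, 2 residual and 5.57 prior degrees of freedom), after tests on simulated data. The genes and lists were chosen with earlier results of these data known. All members were named, and from each other list the genes past the threshold and the other 2 with the smallest p. Csf1r, Cd14, Adgre1, Itgam, Ptprc, C1qb, C1qa, Fcer1g, Cx3cr1, Marco, Spi1, Ctbs, Ctsf and Krt19 were named after their values were seen. Alternatives were no trend, a robust prior, no dim genes, averaged probe sets, quantile normalization, centred arrays, a block on the replicate number and leaving out each array. Same-numbered arrays did not deviate together (r = -0.03). A planned search for sorting signals in protein sequences was not run.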

Additional observations from a re-analysis of the deposited data

How the results depend on the processing

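The 31 genes other than Cd68 had 0 calls under every alternative run. Cd68, the gene that chose the list, is left out of that count. In limma, 1964 of all genes had an unadjusted p under 0.05 without the trend and 2124 with the replicate block. The number of all genes called was 96 as reported, 0 without the trend, 149 without dim genes, 10 with the replicate block and 0 to 4 without single arrays. The median difference of the 32 members was 0.0561 as reported, 0.0023 with centred arrays and 0.0540 to 0.0823 without single arrays. The count of E-box promoters was 9 in both windows.

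The sign held under every alternative for 19 members and turned for 13, of which Lamp2 and Lipa turned under centring alone, a shift common to all genes. Centring gave Lamp2 -0.0047, Scarb2 -0.0293, Manba -0.0278, Fuca1 -0.0106, Galns -0.0111, Lipa -0.0265 and Ppt1 -0.0458. Quantile normalization gave Gusb 0.0166 and Npc1 0.0028. Averaged probe sets gave Arsb -0.0024 and Npc1 0.14, which takes in a dim probe set of Npc1. Without single arrays the ranges were -0.19 to 0.24 for Scarb2, -0.51 to 0.11 for Gaa, -0.15 to 0.0805 for Gusb, -0.0325 to 0.0844 for Manba, -0.0430 to 0.13 for Fuca1, -0.0734 to 0.24 for Arsb, -0.0259 to 0.11 for Galns, -0.0706 to 0.0240 for Npc1, -0.19 to 0.10 for Psap, -0.0698 to 0.0857 for Ppt1 and -0.0582 to 0.20 for Cln3. Beyond the numbers of arrays and genes that enter a fit, the cause of these changes was not tested.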

Other observations

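The probe set shared by Glb1 and Tmppe was at 7.11 and 7.15 with DMSO and at 7.08 and 7.06 with GSK126, a difference of -0.06. The genes next to Cd68 on its chromosome in the RefSeq table (GRCm38.p6) were read after the Cd68 values were seen. Of the 3 nearest measured protein-coding genes on each side, Fxr2, Sox15, Mpdu1, Eif4a1, Senp3 and Polr2a, 0 were called by limma and 0 had an unadjusted p under 0.05. Mpdu1, which takes part in sugar chain assembly, was at 9.91 and 10.01 with DMSO and at 10.13 and 10.12 with GSK126. Eif4a1, the translation initiation helicase, was at 12.00 and 11.87 with DMSO and at 11.92 and 12.71 with GSK126, so that its difference of 0.38 came from GSK126 replicate 2.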
